A study of Mus musculus with 5 samples.

Results

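The miR-23, miR-27 and miR-24 clusters are a pair of paralogous groups of microRNA (miRNA) genes, an a cluster holding Mir23a, Mir27a and Mir24-2 and a b cluster holding Mir23b, Mir27b and Mir24-1. Members were chosen by name, as every mouse probe set on the array called miR-23a, miR-23b, miR-27a, miR-27b, miR-24, miR-24-1 or miR-24-2 with either arm, and 11 of the 1122 mouse miRNAs on the array met that rule. The 5 guide strands, the arms that accumulate from each hairpin, are mmu-miR-23a-3p, mmu-miR-27a-3p, mmu-miR-23b-3p, mmu-miR-27b-3p and mmu-miR-24-3p, and the remaining 6 are the opposite, passenger arms. The cells were bone marrow-derived dendritic cells (BMDCs) of C3H/HeJ mice, a strain that responds poorly to lipopolysaccharide because of a Tlr4 mutation, grown with recombinant mouse GM-CSF and IL-4 and sorted for CD11c with magnetic beads. The flagellin group (FliC, 3 arrays) received flagellin at 100 ng/mL and the medium group (mock, 2 arrays) received medium only, both for 24 h, and all 5 arrays lay on 1 slide. How many animals or cultures the samples came from is not given in the sources used here, so p-values measure the spread between these samples, which may be technical.

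Each cluster is transcribed as a single primary RNA from which Drosha and Dicer release the hairpins and then the mature strands, so the members of a cluster share a promoter but can differ in processing and stability. As background, the a cluster is known for its activity in myeloid cells, miR-23b for restraining NF-kappaB signalling, miR-27 for targeting PPAR gamma and for regulating T helper cells, and miR-24 for acting with miR-27 on T helper cell cytokines. Flagellin, the subunit of bacterial flagella, is the ligand of Toll-like receptor 5 (TLR5), which signals through MyD88 to NF-kappaB. The comparison of the groups asks which miRNAs differ in dendritic cells after this stimulus.

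The probe positions on the array, given on mouse build mm9, place the a cluster within 363 bases at chr8:86732433-86732795 and the b cluster within 776 bases at chr13:63401805-63402580. In RefSeq's gene table of another build, GRCm38.p6, the b cluster lies inside the protein-coding gene Aopep, between Fbp1 and Fancc, and no gene in the table contains the a cluster, whose nearest protein-coding genes are Nanos3 and Zswim4. The mature sequences below, from RefSeq on GRCm38, are those of 7 detected members, written 5′ to 3′ with the seed (bases 2 to 8, which pair with target mRNAs) in capitals. RefSeq's table held 10 of the 11 members.
miR-23a-3p: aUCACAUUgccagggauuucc
miR-27a-3p: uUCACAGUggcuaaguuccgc
miR-27b-3p: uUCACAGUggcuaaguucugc
miR-24-3p: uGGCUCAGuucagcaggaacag
miR-24-2-5p: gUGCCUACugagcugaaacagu
miR-24-1-5p: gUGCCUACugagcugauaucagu
miR-23a-5p: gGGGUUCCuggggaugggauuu
miR-27a-3p and miR-27b-3p share their seed and differ at 1 of 21 bases, C19U counted from the 5′ end of miR-27a-3p. The passenger arms miR-24-2-5p and miR-24-1-5p also share a seed. miR-24-3p has the same sequence at both loci, so its signal cannot be divided between the clusters.

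The a and b paralogs are told apart on the array by probes that differ at a single base. The following probes, written 5′ to 3′, are the 17-base probes of the miR-23 and miR-27 guides, with the differing base in capitals.
miR-23a-3p probe: ggAaatccctggcaatg
miR-23b-3p probe: ggTaatccctggcaatg
miR-27a-3p probe: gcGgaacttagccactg
miR-27b-3p probe: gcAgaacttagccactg
Counted from the 5′ end of the a probe, the change is A3T between the miR-23 probes and G3A between the miR-27 probes. How much of a paralog each probe also binds was not tested. A level on this array is the brightness of a miRNA's own probes, so levels of different miRNAs are given side by side and only differences between arrays are compared.

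The arrays differed in overall brightness. The 75th percentile of the total gene signal (the summed signal of a miRNA's detected probes), taken over the 277 mouse miRNAs that every array detected, was 281 on flagellin replicate 1, 293 on replicate 2 and 211 on replicate 3. It was 282 on medium replicate 1 and 246 on medium replicate 2. Flagellin replicate 3 was thus the dimmest array, and each array was divided by its own percentile before any comparison. Values below are log2 of this scaled signal unless a total gene signal is named. Both medium arrays lay in column 4 of the slide, flagellin replicates 1 and 2 in column 2 and flagellin replicate 3 in column 3. No column held both groups, so column and treatment cannot be told apart. Row 1 held flagellin replicates 1 and 3 with medium replicate 2, and row 2 held flagellin replicate 2 with medium replicate 1.

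The label of dendritic cells was checked against markers of myeloid and other cells. None of the lists is for dendritic cells as such, so the check cannot tell them from other myeloid cells. Of the 6 myeloid and haematopoietic markers 5 were detected on all arrays, with the probes of miR-223-3p giving the most signal, at 3.62, 3.53 and 3.57 with flagellin and 3.47 and 3.49 in medium. miR-223-3p, miR-155-5p and miR-146a-5p of this list were higher with flagellin, without overlap, by 0.096, 0.35 and 0.28. miR-142-3p was at 2.50, 2.95 and 2.30 with flagellin and 2.93 and 2.74 in medium, with overlap and a difference of -0.25. miR-142-5p was at 0.96, 1.64 and 0.83 with flagellin and 1.19 and 1.04 in medium, with overlap and a difference of 0.029. For both miR-142 arms flagellin replicate 2 stood highest, and flagellin replicates 1 and 3 lay below both medium arrays. Lymphoid miR-150-5p, liver miR-122-5p and the neural markers were detected on no array. The stromal, endothelial and erythroid lists were highest on flagellin replicate 2. The summed scaled signal of the stromal or smooth muscle list, where 1 is the array's 75th percentile, was 0.0199, 0.206 and 0 on flagellin replicates 1, 2 and 3 and 0.0198 and 0 in medium, with miR-199a-3p the brightest and 4 of 7 on the array detected nowhere. The endothelial list gave 0.0449, 0.0993 and 0.0266 with flagellin and 0.0444 and 0.0205 in medium, all from miR-126-3p. The erythroid list gave 0.0188, 0.0579 and 0 with flagellin and 0 in medium, all from miR-451. In bulk RNA such as this, fewer cells of a type and less RNA per cell cannot be told apart. Of the epithelial list, miR-200c-3p was the brightest and 5 of 6 were undetected, and of the muscle list miR-206-3p was the only one detected, at -3.83 to -4.17 with flagellin and -3.91 and -4.00 in medium.

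All 5 guides and 3 of the 6 passenger arms were detected on all 5 arrays, and the other 3 passenger arms on none. The detected 8 were among the 307 mouse miRNAs tested, those detected on at least 2 of the 5 arrays whatever their group. The 5 guides together made up 12.3%, 11.6% and 10.9% of the summed total gene signal of detected mouse miRNAs on flagellin replicates 1, 2 and 3, and 10.4% and 10.98% on medium replicates 1 and 2.

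Of the a cluster guides, miR-23a-3p had total gene signals of 8940, 8520 and 6386 on flagellin replicates 1, 2 and 3 and of 7751 and 7241 on medium replicates 1 and 2. Scaled and on the log2 scale these were 4.99, 4.86 and 4.92 with flagellin and 4.78 and 4.88 in medium. The medium arrays reached into the flagellin range, and the group means were 4.93 ± 0.065 with flagellin (SD, n = 3) and 4.83 ± 0.070 in medium (SD, n = 2). miR-27a-3p stood at 3.76, 3.79 and 3.50 with flagellin and at 3.51 and 3.57 in medium. For this guide flagellin replicates 1 and 2 were above both medium arrays, whereas replicate 3 was just under the lower medium array, and the SD among the flagellin arrays was 0.16.

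Of the b cluster guides, miR-23b-3p was at 3.68, 3.54 and 3.61 with flagellin and at 3.47 and 3.59 in medium, with the 5 arrays in the same order as for miR-23a-3p and medium replicate 2 above flagellin replicate 2 in both. miR-27b-3p was at 2.75, 2.60 and 2.51 with flagellin and at 2.52 and 2.56 in medium. Here flagellin replicate 1 stood highest, flagellin replicate 3 lowest, and the groups overlapped.

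miR-24-3p, which both loci encode, was at 5.19, 5.02 and 5.12 with flagellin and at 4.87 and 5.01 in medium. It was the only detected member whose 3 flagellin arrays all exceeded both medium arrays, with flagellin replicate 2 and medium replicate 2 nearly level. In unscaled total gene signal, flagellin replicate 3 (7320) lay below both medium arrays (8254 and 7908). Of the 307 miRNAs tested, 35 (11.4%) had all flagellin arrays above both medium arrays, so 1 of 8 members is close to the share over the whole array. None of the 8 had all flagellin arrays below both medium arrays, against 27 of 307 (8.79%).

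**Figure D1:**
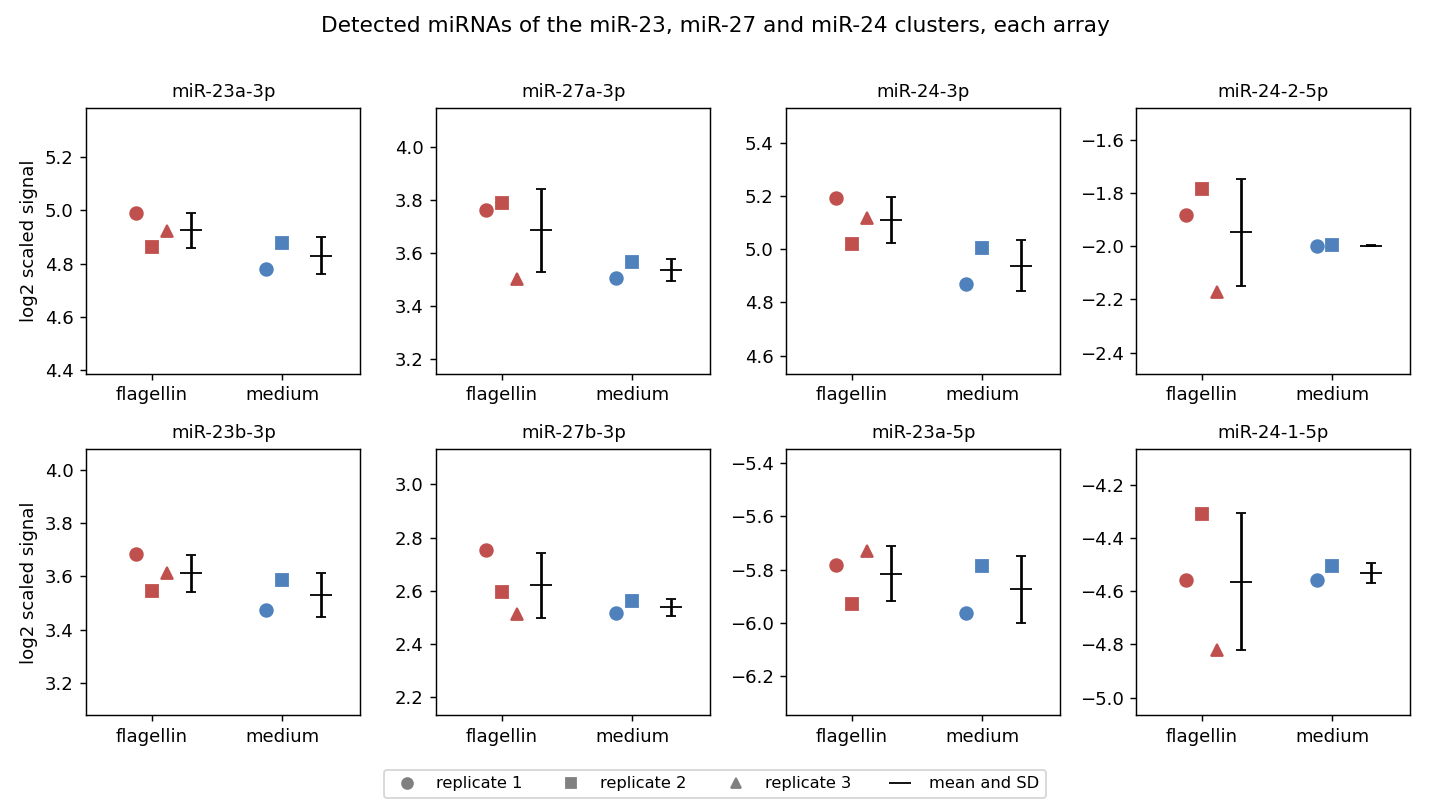
Log2 scaled signal of the 8 detected members on each array (y axis, each panel spans 1 log2 unit), by group, with group mean and SD beside the points. miR-24-3p is the panel without overlap between the groups, and flagellin replicate 3 (triangle) lies below the other flagellin arrays for miR-27a-3p, miR-27b-3p, miR-24-2-5p and miR-24-1-5p.

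No member passed the test of flagellin against medium in the limma fit across all 307 miRNAs. After Benjamini-Hochberg adjustment over all of them 2 (0.651%) had an adjusted p under 0.05. These were miR-5112 and miR-466i-3p, which belong to neither cluster and were chosen for naming after their values were seen. Neither passed without scaling, with quantile normalization or with the row as a block. At an unadjusted p under 0.05 there were 18 (5.86%), of which 5 (1.63%) were higher and 13 (4.23%) lower with flagellin, and 0 of the 8 members. This balance turned with the processing, to 10 higher and 4 lower with the percentile over all mouse miRNAs and to 18 and 7 with the spot-level processing described below, and was 0 and 8 without scaling. In this fit the largest difference among the members was that of miR-24-3p, 0.17 ± 0.093 (SE) on the log2 scale, a fold of 1.13 with a 95% interval from 0.951 to 1.34 (limma adjusted p = 0.859). miR-27a-3p followed with 0.15 ± 0.12 (SE; 95% interval -0.16 to 0.46, limma adjusted p = 0.859). This order turned with the row as a block (0.16 for miR-27a-3p, 0.15 for miR-24-3p) and without flagellin replicate 3 (0.24 and 0.17). The differences of miR-23a-3p, miR-23b-3p and miR-27b-3p were 0.096, 0.083 and 0.082, with 95% intervals that all included 0 (-0.12 to 0.31, -0.14 to 0.31 and -0.18 to 0.34). Over the 5 guides the upper ends of the intervals lay between 0.31 and 0.46. With this scaling, that bounds a higher level with flagellin at a fold of 1.37 for miR-27a-3p and at less for the others. The percentile over all mouse miRNAs raised each guide's difference by 0.18, so the bound covers the main scaling only.

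The flagellin mean was above the medium mean for all 5 guides, against 159 of the 307 miRNAs tested (51.8%), but after quantile normalization miR-23b-3p and miR-27b-3p stood at -0.027 and -0.027. The same normalization left miR-23a-3p at 0.066, miR-24-3p at 0.068 and miR-27a-3p at 9.7e-05. Of the 8 detected members 7 had the higher mean with flagellin, all but miR-24-1-5p. The median difference was 0.082 over the members and 0.0095 over all 307. Scaling by the 75th percentile over all mouse miRNAs moved the median difference of all 307 from 0.0095 to 0.19 and raised each guide's difference by 0.18, about as much as that median.

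The difference of miR-27a-3p varied with the arrays used. Without flagellin replicate 3 it was 0.24 (limma adjusted p = 0.164), the only member then under an unadjusted p of 0.05, with 71 of the 307 miRNAs then under an unadjusted p of 0.05 in place of 18. Without flagellin replicate 2 it was 0.097 (limma adjusted p = 0.952). A combined alternative changed several steps at once, with normexp background correction of mean spot signals, quantile normalization, the median over a probe's spots and the mean over a miRNA's probes. In this spot-level processing miR-24-3p and miR-27a-3p differed by 0.22 and 0.15 and were under an unadjusted p of 0.05, with a limma adjusted p of 0.525 each. Leaving out medium replicate 1 lowered the guides to 0.046 for miR-23a-3p, 0.025 for miR-23b-3p, 0.12 for miR-27a-3p, 0.060 for miR-27b-3p and 0.10 for miR-24-3p. Leaving out medium replicate 2 gave 0.15, 0.14, 0.18, 0.10 and 0.24 in the same order. Without flagellin replicate 1 they stood at 0.063, 0.048, 0.11, 0.016 and 0.13. The size of each guide's difference thus rested on which of the 5 arrays were used.

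The slide rows held arrays of both groups, so the guides were also compared within them. Within row 1 miR-24-3p differed by 0.15 and within row 2 by 0.15, and with the row as a block by 0.15 (limma adjusted p = 0.881). miR-23a-3p differed by 0.078 and 0.082 within rows 1 and 2 and by 0.080 with the row as a block. For miR-27a-3p the values were 0.068 in row 1, which held flagellin replicate 3, and 0.28 in row 2, and 0.16 with the block. In rows 1 and 2 miR-23b-3p stood at 0.060 and 0.071 and miR-27b-3p at 0.072 and 0.081. With the array column as a random block, an alternative chosen after seeing the data, the 5 guides differed by between 0.070 and 0.17, each with an adjusted p of 0.997.

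**Figure D2:**
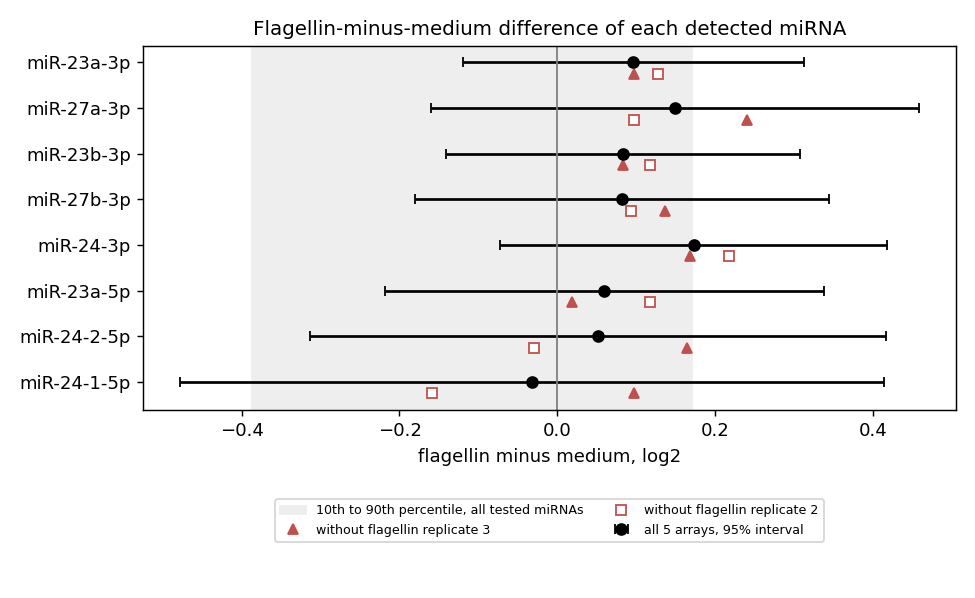
Flagellin-minus-medium difference on the log2 scale (x axis) of each detected member, with the limma 95% interval, and the difference without flagellin replicate 2 or 3. All 8 intervals include 0, and the shaded band from -0.39 to 0.17, the 10th to 90th percentile of the differences of all 307 miRNAs, holds 7 of the 8 points, with miR-24-3p just past its upper edge.

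Of the passenger arms, miR-24-2-5p, from the a cluster, had total gene signals of 76.2, 85.0 and 46.7 with flagellin and 70.6 and 61.7 in medium. On the scaled log2 scale flagellin replicates 1 and 2 (-1.88 and -1.79) lay above both medium arrays (-1.9996 and -1.997) and flagellin replicate 3 (-2.17) below them. The difference was 0.051 (95% interval -0.31 to 0.42, limma adjusted p = 0.936), with -0.031 in row 1 and 0.21 in row 2. It was -0.030 without flagellin replicate 2 and 0.16 without flagellin replicate 3. miR-24-1-5p, its counterpart from the b cluster, had signals of 11.9, 14.8 and 7.44 with flagellin and 11.98 and 10.8 in medium, again with flagellin replicate 2 highest and replicate 3 lowest. Its difference was -0.032 (95% interval -0.48 to 0.41, adjusted p = 0.983), the only negative one among the 8, with -0.18 in row 1 and 0.25 in row 2. It was 0.098 without flagellin replicate 3 and 0.090 with quantile normalization.

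miR-23a-5p, the passenger arm of the a cluster's first hairpin, was near the limit of detection with signals of 5.11, 4.80 and 3.96 with flagellin and 4.52 and 4.46 in medium, where the lowest detected signals on the 5 arrays ranged from 2.31 to 3.21. Its difference was 0.059 (95% interval -0.22 to 0.34, adjusted p = 0.896). It rested on the longest of its 4 probes, the only one above 3 times its error, and summing all 4 probes as measured turned the difference to -0.14. miR-23b-5p, miR-27a-5p and miR-27b-5p had no probe above 3 times its error on any array, so these arms were below detection in both groups.

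The a and b paralogs were compared within each array, where a scaling constant cancels. The log2 signal of miR-23a-3p minus that of miR-23b-3p was 1.308, 1.318 and 1.310 on flagellin replicates 1, 2 and 3 and 1.307 and 1.291 on medium replicates 1 and 2. The 5 values spanned 0.027 on the log2 scale, and although the flagellin arrays all lay above the medium arrays, the groups differed by 0.013. A two-sided exact permutation test over the 10 ways to split 3 arrays from 2 gave p = 0.1 (n = 3 and 2), the smallest this design allows, and 0.6 after adjustment over the 6 within-array differences. With the brightest probe of each miRNA alone the difference was -0.010, and within rows 1 and 2 it was 0.018 and 0.011. It was 0.021 without medium replicate 1, 0.0051 without medium replicate 2 and 0.057 with the spot-level processing.

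For miR-27a-3p minus miR-27b-3p the values were 1.01, 1.19 and 0.99 with flagellin and 0.99 and 1.01 in medium. Flagellin replicate 2 stood apart, above the other arrays, which lay close together. The groups differed by 0.067 (exact permutation p = 0.6, adjusted p = 0.6), by 0.20 in row 2, which held that array, and by -0.0040 in row 1. Without flagellin replicate 2 the difference was 0.0035. The mean of the a guides minus the mean of the b guides had no overlap between the groups and was higher with flagellin by 0.040 (exact permutation p = 0.5, adjusted p = 0.6), by 0.0071 within row 1 and by 0.11 within row 2. Without flagellin replicate 2 this mean difference was 0.0068. With the spot-level processing the miR-27 pair differed by 0.12 and the mean difference was 0.089, and with quantile normalization the miR-23 pair differed by 0.093. Flagellin replicate 2 was also the array with the highest stromal, endothelial and erythroid markers, and their part in this value was not tested. Without that array miR-23a-3p, miR-23b-3p, miR-27a-3p, miR-27b-3p and miR-24-3p differed between groups by 0.13, 0.12, 0.097, 0.094 and 0.22.

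Guide and passenger arms were compared in the same way for the 3 passenger arms that were detected. Since the miR-24-3p signal comes from both loci, its differences from miR-24-2-5p and miR-24-1-5p are not those of a single hairpin. miR-23a-3p minus miR-23a-5p was 10.77, 10.79 and 10.65 with flagellin and 10.74 and 10.66 in medium. The difference between groups was 0.036 (exact permutation p = 0.6, adjusted p = 0.6), with 0.050 in row 1 and 0.049 in row 2. It was -0.28 with quantile normalization, 0.23 with probes summed as measured and -0.0035 without medium replicate 2, so its direction depended on these choices. miR-24-3p minus miR-24-2-5p was 7.07, 6.81 and 7.29 with flagellin and 6.87 and 7.003 in medium, so the flagellin arrays lay on both sides of the medium arrays. The difference between groups was 0.12 (exact permutation p = 0.5, adjusted p = 0.6), with 0.18 in row 1 and -0.063 in row 2. It was 0.0044 without flagellin replicate 3, 0.25 without flagellin replicate 2, 0.055 without medium replicate 1, 0.19 without medium replicate 2 and 0.0016 with quantile normalization.

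With the b cluster's passenger arm, miR-24-3p minus miR-24-1-5p was 9.75, 9.33 and 9.94 with flagellin and 9.43 and 9.51 in medium. The difference between groups was 0.20 (exact permutation p = 0.5, adjusted p = 0.6), with 0.33 in row 1 and -0.097 in row 2. It was 0.071 without flagellin replicate 3, 0.38 without flagellin replicate 2 and -0.023 with quantile normalization. Both miR-24 passenger arms were thus nearest to miR-24-3p on flagellin replicate 2 and farthest from it on replicate 3, and the spread among the flagellin arrays (SD 0.24 and 0.31) exceeded the differences between groups.

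**Figure D3:**
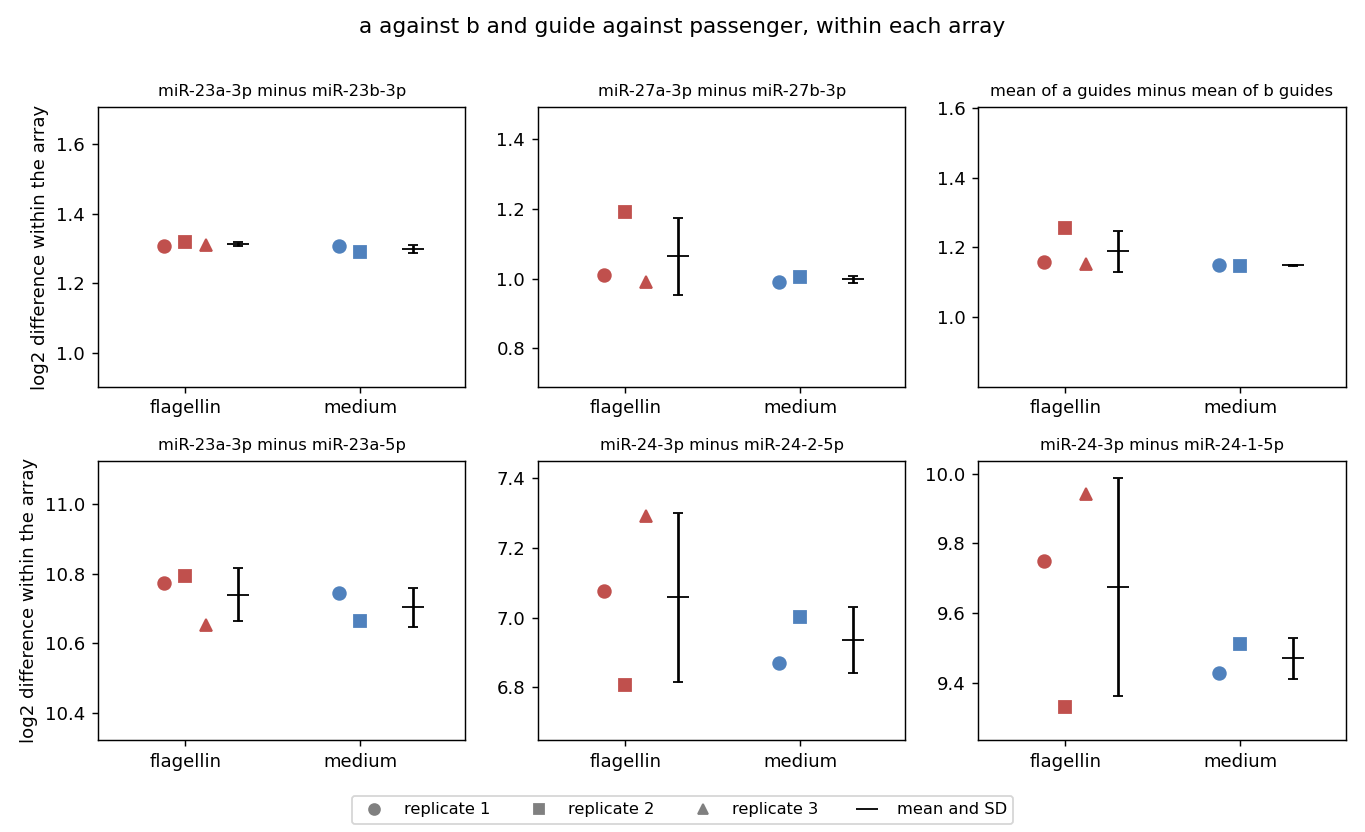
Log2 difference within each array (y axis, each panel spans 0.8 log2 units) for the a-minus-b pairs and the guide-minus-passenger pairs, by group, with mean and SD. The miR-23 values span 0.027, flagellin replicate 2 (square) stands apart for miR-27, and the miR-24 pairs spread widest among the flagellin arrays.

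Of the 28 probes of the 11 members, 14 were above 3 times their error on all 5 arrays. Their flagellin-minus-medium differences ran from -0.032 to 0.20 and 13 were positive, beside 283 (53.1%) of the 533 mouse probes that met the same criterion. The 14 probes belong to the 8 detected members. Paired probes of a miRNA overlap in sequence and read the same molecule, so these counts are not independent of those by miRNA. The groups did not overlap for 2 of the 14, beside 112 (21%) of the 533, and both were higher with flagellin, beside 69 (12.9%). They were both probes of miR-24-3p, with differences of 0.20 for the 17-base and 0.15 for the 18-base probe. Without scaling, 0 of the 14 had groups without overlap. No probe had a two-sided exact permutation p under 0.2, and the lowest adjusted p over the 14 was 0.7. The smallest p that this test allows with these arrays is 0.1, so no probe could have come under 0.05. The 17-base and 18-base probes of miR-23a-3p gave 0.095 and 0.096. The 16-base and 17-base probes of miR-23b-3p gave 0.015 and 0.11, those of miR-27b-3p 0.027 and 0.094, and those of miR-27a-3p 0.12 and 0.16. The shorter probe thus had the smaller difference for the miR-23 and miR-27 guides, by little for miR-23a-3p, whereas for miR-24-3p and miR-24-2-5p it had the larger one.

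**Figure D4:**
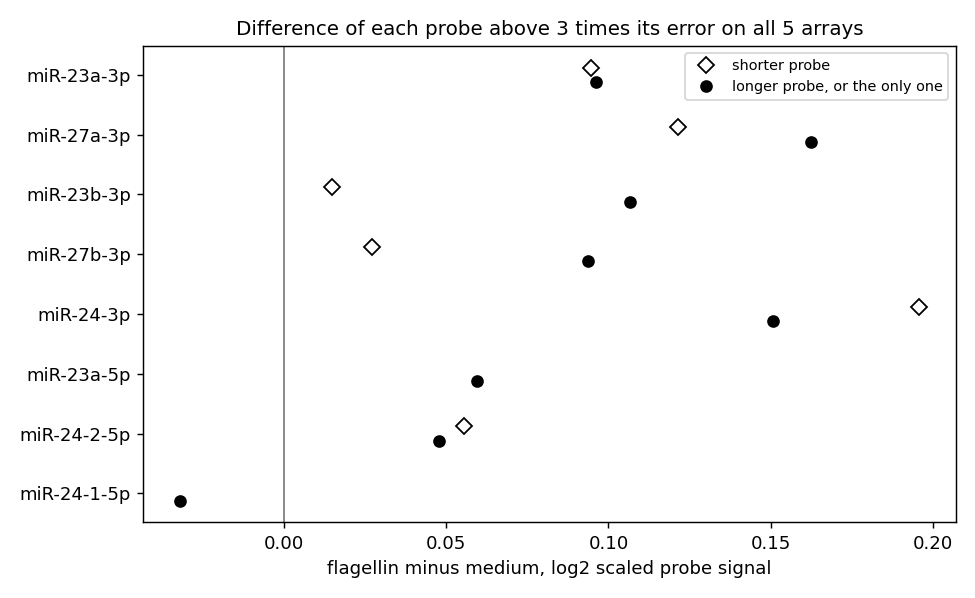
Flagellin-minus-medium difference of each of the 14 measurable probes (x axis, log2 scaled probe signal), by miRNA, with the shorter and longer probe of a miRNA drawn separately. All but the probe of miR-24-1-5p lie above 0, between 0.015 and 0.20.

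Across the 5 arrays, the miRNAs whose pattern was most like each guide were taken as those with the smallest root mean square difference of log2 values, each first centred on its own mean, among the 276 others detected on all arrays. For miR-23a-3p and miR-23b-3p the nearest was the other of the pair, at 0.0088, followed by miR-17-5p, at 0.014 from miR-23a-3p and 0.012 from miR-23b-3p. The probes of this pair are told apart by a single base, and the part of shared binding in their likeness was not tested. The 3 nearest to miR-27a-3p were miR-106b-5p, miR-140-5p and miR-350-3p, at 0.024 to 0.029. Its paralog miR-27b-3p came 35th, at 0.077, and its cluster neighbour miR-23a-3p 74th, at 0.11. The next nearest to the miR-23 guides were miR-378b for miR-23a-3p and miR-103-3p for miR-23b-3p, at 0.018 and 0.015. Nearest to miR-27b-3p were miR-20a-5p, miR-128-3p and miR-30e-3p, and nearest to miR-24-3p were miR-652-3p, miR-674-3p and miR-331-3p, with miR-23a-3p 6th. The lowest adjusted p among the miRNAs named as nearest was 0.859.

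Of the miRNAs known to respond to TLR signalling, 11 were on the array and 7 were tested. All 7 had a higher flagellin mean, beside 51.8% of all 307. An unadjusted limma p under 0.05 was reached by 3, beside 5.86% of all 307, with 0 under an adjusted p of 0.05. The list was chosen with earlier results of these data known, so these counts do not test a response to flagellin. Over all 307, 11.4% had all flagellin arrays above both medium arrays. For miR-212-3p only flagellin replicate 3 lay above medium, with -1.63, -1.77 and -1.02 with flagellin and -1.52 and -1.48 in medium. miR-155-5p, which NF-kappaB and AP-1 induce in activated myeloid cells, was at 1.57, 1.43 and 1.56 with flagellin and at 1.08 and 1.25 in medium, without overlap. Its difference was 0.35 (95% interval 0.10 to 0.61, limma adjusted p = 0.650). miR-132-3p and miR-146a-5p, a feedback inhibitor of TLR signalling, differed by 0.35 and 0.28 with the same adjusted p and without overlap. miR-21-5p, miR-146b-5p and miR-212-3p differed by 0.057, 0.054 and 0.023 with overlap between the groups, and miR-125b-5p by 0.18 without overlap. For miR-125b-5p, flagellin replicate 2 stood apart at -1.21, the array with the highest stromal, endothelial and erythroid markers. Flagellin replicates 1 and 3 (-1.57 and -1.54) lay just above medium (-1.60 and -1.63), and the part of those markers was not tested. Unscaled, miR-125b-5p on flagellin replicate 3 (72.2) lay below both medium arrays (92.8 and 79.7). The median difference over the 7 was 0.18, that of miR-125b-5p, beside 0.096 over the 5 guides of the clusters.

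miR-128-3p was the 1 other miRNA on the array found to carry a member's seed, that of miR-27 shifted by 1 base. Its sequence is given with bases 2 to 8 in capitals.
miR-128-3p: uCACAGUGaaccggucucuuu
It was at -2.61, -2.79 and -2.81 with flagellin and at -2.86 and -2.78 in medium, a difference of 0.084 (95% interval -0.17 to 0.34, adjusted p = 0.859). Of the 7 neighbours, the antisense miR-3074 arms and the miR-181c and miR-181d arms that lie near the a cluster, 5 were detected on no array. Only miR-181d-5p was tested, with a difference of 0.17 (95% interval -1.28 to 1.61). It was at -5.42, -5.31 and -5.22 with flagellin and -4.59 on medium replicate 1, above all of these, and was undetected on medium replicate 2, where the floor of -6.37 stands in for a value, so the sign of this difference rests on that array.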

How the data were processed

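RNA of each sample was labelled with Cy3 and hybridised to a 1-colour Agilent mouse miRNA array. Per the file headers and the labels, the authors extracted spot intensity values with Agilent Feature Extraction 10.7, and each deposited total gene signal is the sum of the probe signals above 3 times their error, or 0.1 where there is none. Recomputing this rule matched all 5895 deposited values within a relative tolerance of 0.001. The deposited series table holds the authors' log2 total gene signals less 1 constant per array (6.90, 6.91 and 6.55 for flagellin and 6.91 and 6.73 for medium), with column medians of -10.22, -10.23, -9.88, -10.23 and -10.05; how the constants were chosen is not given in the sources used here.

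Each array was divided by its 75th percentile over mouse miRNAs detected on all 5 arrays, values under a common floor of 0.0121 were raised to it, and log2 was taken. Mouse miRNAs detected on at least 2 of 5 arrays (307 of 1122) were fitted with limma 3.58.1 (R 4.3.3, lmFit and eBayes) and adjusted by Benjamini-Hochberg over all 307. The fit was tested on simulated data. Within-array differences and probe signals were compared by two-sided exact permutation tests in Python 3.11.15 with numpy 2.4.6 and pandas 2.3.3. Figures used matplotlib 3.10.9.

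Named miRNAs are all members, the 3 nearest to each guide, seed sharers, locus neighbours, TLR-responsive miRNAs and cell type markers. The members and lists were chosen with earlier results of these data known. Alternatives covered scaling, floor, filter, probe summary, a combined spot-level processing (normexp with offset 50 on mean spot and median background signals, quantile normalization, median over spots, mean over probes), the test, replicate and slide row blocks, and leaving out each array; the array column as a random block was added after seeing the data. Control spots and 57 viral miRNAs were left out of the main scaling and of all tests. In the spot-level processing, control spots entered the background correction, and viral miRNAs entered that step and the quantile normalization. The number of arrays limits the precision.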

Additional observations from a re-analysis of the deposited data

How the results depend on the processing

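No setting brought a member under an adjusted p of 0.05; over 19 alternatives miR-23a-3p ranged from 0.046 to 0.28, miR-24-3p from 0.068 to 0.35 and miR-27a-3p from 9.7e-05, with quantile normalization, to 0.33. Members under an unadjusted p of 0.05 numbered 2 in place of 0 with the spot-level processing, which changed background correction (normexp), normalization and the spot and probe summaries together, and 0 to 1 when 1 array was left out (1 without flagellin replicate 3). The equal-variance test named in the methods gave 0 members, 14 miRNAs unadjusted and 2 after adjustment, miR-5112 not among them.

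Adjusted calls over all miRNAs (2) were 0 without scaling, with the percentile taken over all mouse miRNAs, with quantile normalization, probes summed as measured, spot-level processing or the row as a block. They numbered 4 with the authors' table or a floor divided by 10, 1 with detection on all 5 arrays, no filter, the trend option or the column as a random block, and 0 to 1 with 1 array left out; of the alternatives only the authors' table and the lower floor kept miR-5112. Unadjusted calls (18) were 8 without scaling, 8 with the column as a random block and 7 to 71 with 1 array left out (11 without flagellin replicate 1, 71 without flagellin replicate 3, 7 without medium replicate 1). Their split of 5 higher and 13 lower became 10 and 4 with the percentile over all mouse miRNAs, 9 and 10 with quantile normalization, 18 and 7 with spot-level processing and 0 and 8 without scaling.

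Among the members, miR-23a-5p turned to -0.14 with probes summed as measured and -0.010 with spot-level processing, stood at 0.34 with quantile normalization and 0.24 with the percentile over all mouse miRNAs, and ranged from -0.030 to 0.15 with 1 array left out. miR-23b-3p and miR-27b-3p turned to -0.027 and -0.027 with quantile normalization. miR-24-1-5p turned to 0.15 with the percentile over all mouse miRNAs, which shifts all 8 members by 0.18, 0.090 with quantile normalization, 0.012 with spot-level processing, 0.00060 with the row as a block, and -0.16 to 0.098 with 1 array left out. miR-24-2-5p ranged from -0.030 to 0.16 with 1 array left out.

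Within arrays, miR-23a-3p minus miR-23b-3p turned to -0.010 with the brightest probe alone. miR-23a-3p minus miR-23a-5p turned to -0.28 with quantile normalization, stood at 0.23 with probes summed as measured and 0.10 with spot-level processing, and ranged from -0.0035 to 0.080 with 1 array left out. miR-24-3p minus miR-24-1-5p turned to -0.023 with quantile normalization. Without scaling, 0 probes in place of 2 had groups without overlap. The causes were not tested, except that leaving out an array leaves fewer samples; where 1 medium array remains, its spread is taken to equal that of the flagellin arrays.

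The groups share replicate numbers 1 and 2 only, and nothing in the sources ties the samples of a number together. Deviations from the group means correlated across miRNAs at 0.047 and 0.0073 for the same numbers. With the replicate block the adjusted calls were 0, the unadjusted calls 39, none of them a member, and miR-24-1-5p stood at 0.098. Signals near the floor have little room above background.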
